A study of Mus musculus with 2 samples.

Results

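The genes described here are the ribosomal protein pseudogenes of the mouse, taken as every gene of the reference annotation whose symbol starts with Rpl or Rps and contains -ps. The annotation held 300 such genes, of which 269 were listed in at least 1 of the 2 short-read tables, among 27321 genes listed in all. The table of the 10% aliquot listed 252 of its 20830 genes under this rule, and the table of the 90% aliquot listed 267 of 26997. Of the 300 genes, 287 were annotated as processed pseudogenes, 7 as transcribed processed pseudogenes and 6 as protein-coding. They lay on 20 chromosomes, and 207 overlapped no other annotated gene.

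A ribosomal protein gene makes 1 of the structural proteins of the large (Rpl) or small (Rps) ribosomal subunit, and its mRNA is among the most abundant of any growing cell. Processed pseudogenes are copies of such an mRNA that was reverse transcribed and inserted elsewhere in the genome, so they lack introns and usually lack a promoter of their own. Young copies still carry almost the same letters as the parent mRNA, and older ones have gathered differences. Here the parent of a pseudogene is the gene named by the symbol before -ps, and 268 of the 269 listed pseudogenes belonged to 60 parents, while Rpl48-ps1, with 1 and 10 UMIs, had no parent among the genes.

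Muscle stem cells, the Pax7-expressing progenitors of skeletal muscle fibres, were sorted by YFP from Pax7creERT2;R26-eYFP fl/fl mice on a C57BL6 background, in which the tamoxifen-inducible Cre under Pax7 switches on the reporter. Tamoxifen was given at 3 months of age, and quiescent cells from uninjured muscle were captured together with activated cells taken 72 h after barium chloride injury. A single droplet capture was divided into a 10% aliquot, sequenced with short reads and with nanopore long reads, and a 90% aliquot, sequenced with short reads only. Each aliquot is 1 library, quiescent and activated cells carry no label in it, and no replicate spread was available, so intervals below cover counting error only and no test between conditions was made.

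The values are UMI counts, with each UMI standing for 1 tagged molecule next to its 3′ end, so they were not divided by transcript length. The 10% table held 6772259 UMIs in 1991 barcodes, while 39044129 UMIs in 3001 barcodes made up the 90% table. Barcodes of 3000 to 15000 UMIs are called the low depth band (178 and 1391 barcodes) and those of at least 20000 UMIs the high depth band (79 and 606 barcodes). The 8 quiescence markers (Pax7, Calcr, Spry1 and others) summed to 549 and 642 CPM (counts scaled to the total UMIs of the barcodes summed) in the low band of the 10% and 90% tables, against 79.2 and 75.8 in the high band. The 8 activation and cycling markers (Mki67, Top2a, Myog and others) summed to 87.3 and 140 CPM in the low band and to 536 and 710 in the high band. Immune markers were also higher in the low band, at 265 and 221 CPM against 54.1 and 2.34, with Ptprc at 0 in the low band of the 10% table. Endothelial, fibro-adipogenic and myofibre markers, 3 genes each, summed to at most 56.1 CPM in any band.

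The 2 tables did not hold separate cells. All 269 barcodes with at least 3000 UMIs in the 10% table were also listed in the 90% table, and 263 of them held at least 3000 UMIs there too. In these 263 barcodes the 90% total was a median of 0.814 times the 10% total, with quartiles of 0.802 and 0.859. After centring every gene, each of the 263 barcodes resembled itself in the 90% table more than any other of the 263. Its median correlation across genes with itself was 0.82. The remaining barcodes of the 90% table were not compared in this way. Of 418 genes with at least 2 UMIs in exactly 1 of these barcodes of the 10% table, 94.7% had a UMI in that same barcode of the 90% table. Among the rest of the 263 barcodes the value was 0.0804%. In all, 634 barcodes were listed in both tables. Those with at least 3000 UMIs in the 10% table are called the shared barcodes. They made up 166 of the 1391 low-band and 90 of the 606 high-band barcodes of the 90% table. Values of the 90% table are therefore given with and without them. Barcodes listed in both tables with fewer UMIs in the 10% table stay in the values given without the shared barcodes.

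The sequences show how little of some pseudogenes differs from the parent. The stretches below are the last 120 coding bases of 3 parents, ending with the stop codon, and the same stretches of 9 pseudogenes, all in 5′ to 3′ order from Gencode vM21 on GRCm38. Capitals mark bases that differ from the parent. Rps23, which makes a small-subunit protein of the decoding site, is shown first because both of the copies printed here were among the 5 pseudogenes with most UMIs.
Rps23: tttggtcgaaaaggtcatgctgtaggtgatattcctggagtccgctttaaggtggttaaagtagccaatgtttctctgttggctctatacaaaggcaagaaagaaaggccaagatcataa
Rps23-ps1: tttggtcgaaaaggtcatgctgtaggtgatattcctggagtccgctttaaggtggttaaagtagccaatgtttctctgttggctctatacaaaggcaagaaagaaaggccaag
Rps23-ps2: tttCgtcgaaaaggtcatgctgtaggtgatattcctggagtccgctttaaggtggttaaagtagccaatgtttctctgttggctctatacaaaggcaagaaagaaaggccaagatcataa
Rps23-ps1 (chr3:37715052-37715164, plus strand) carried no differing base, and its annotated body stops 7 bases before the end of the parent's stretch. Rps23-ps2 (chr8:3583799-3583918, minus strand) differed once, G4C, counted from 1 at the first base of the stretch with the parent's base first.

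Rpl31, which makes a protein near the exit of the peptide tunnel, is shown because its pseudogenes fell far apart between the 2 tables. With 20 listed pseudogenes it came next to Rps12, which had 24.
Rpl31: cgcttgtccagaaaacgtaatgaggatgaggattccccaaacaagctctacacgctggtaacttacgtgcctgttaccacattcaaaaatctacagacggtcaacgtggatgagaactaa
Rpl31-ps8: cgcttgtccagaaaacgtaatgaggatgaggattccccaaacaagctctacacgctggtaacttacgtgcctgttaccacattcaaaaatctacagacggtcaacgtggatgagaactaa
Rpl31-ps9: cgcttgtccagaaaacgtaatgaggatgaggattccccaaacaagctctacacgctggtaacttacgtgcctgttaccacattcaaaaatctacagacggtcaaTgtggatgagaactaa
Rpl31-ps11: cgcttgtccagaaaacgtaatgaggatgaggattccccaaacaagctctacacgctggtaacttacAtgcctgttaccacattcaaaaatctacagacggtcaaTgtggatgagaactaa
Rpl31-ps4: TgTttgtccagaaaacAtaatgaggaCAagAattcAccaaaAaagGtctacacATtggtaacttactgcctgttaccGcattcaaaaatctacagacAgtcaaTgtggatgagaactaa
Rpl31-ps8 (chr15:90764279-90764398, minus strand) had the letters of the parent throughout. Rpl31-ps9 (chr1:129801387-129801506, minus strand) carried C105T, and Rpl31-ps11 (chr3:94604408-94604527, minus strand) carried G67A and C105T. Rpl31-ps4 (chr16:87549075-87549193, minus strand) carried 14 substitutions and lacked 1 base.

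Rps15a, which makes a protein of the small subunit, is shown as another family, among several, with copies past 2-fold between the tables.
Rps15a: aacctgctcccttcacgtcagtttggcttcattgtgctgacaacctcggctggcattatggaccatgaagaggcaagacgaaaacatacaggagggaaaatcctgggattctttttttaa
Rps15a-ps7: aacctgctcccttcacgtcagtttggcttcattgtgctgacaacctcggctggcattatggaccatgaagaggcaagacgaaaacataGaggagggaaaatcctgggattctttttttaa
Rps15a-ps5: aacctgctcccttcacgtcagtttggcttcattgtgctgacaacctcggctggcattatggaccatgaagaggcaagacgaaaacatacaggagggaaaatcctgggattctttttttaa
Rps15a-ps2: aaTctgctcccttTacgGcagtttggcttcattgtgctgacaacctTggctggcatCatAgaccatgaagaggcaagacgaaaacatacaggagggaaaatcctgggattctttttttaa
Rps15a-ps7 (chr2:152185291-152185410, minus strand) differed by C89G, and Rps15a-ps5 (chr5:105797321-105797440, minus strand) did not differ in this stretch. Rps15a-ps2 (chr19:28742159-28742278, minus strand) differed at 6 bases: C3T, C14T, T18G, C47T, T57C and G60A.

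Short reads counted more UMIs on the pseudogenes than on the genes they were copied from. Over all barcodes the pseudogenes held 956821 UMIs in the 10% table (14.1%, 95% Clopper-Pearson interval 14.1 to 14.2%) and 5287035 in the 90% table (13.5%, interval 13.5 to 13.6%). The 60 parents held 8.17% and 7.94%. That is 173 pseudogene UMIs per 100 parent UMIs in the 10% table and 170.5 in the 90% table (exact binomial intervals 172 to 174 and 170.3 to 170.7), and 170.0 in the 90% table without the shared barcodes. All 83 and 84 listed Rpl and Rps genes that are not pseudogenes held 880403 and 4867819 UMIs together, less than the pseudogenes alone.

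The excess was seen in both depth bands and barcode by barcode. In the low band the pseudogenes held 15.5% and 14.9% of UMIs in the 10% and 90% tables, and in the high band 13.9% and 13.3%. Without the shared barcodes the 90% values were 14.8% and 13.2%. Per barcode, the pseudogene part of all parent and pseudogene UMIs had a median of 64.8% in the low band (5th to 95th percentile 61.8 to 67.2%) and 63.1% in the high band (61.8 to 64.5%) of the 10% table. The same medians in the 90% table were 64.4% and 62.7%. Barcodes below 500 UMIs gave 173 and 167 pseudogene UMIs per 100 parent UMIs, with intervals of 166 to 181 and 161 to 173.

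The UMIs were spread over many pseudogenes but unevenly. At least 1 UMI was found for 252 pseudogenes in the 10% table and 267 in the 90% table, at least 10 UMIs for 195 and 228, and at least 10000 for 44 and 87. The 12 with most UMIs held 26.5% and 27.6% of all pseudogene UMIs, and the 50 with most held 75.02% and 76.7%. A total of 69 pseudogenes in the 10% table and 64 in the 90% table exceeded their own parent, 61 of them in both tables, and these belonged to 31 parents in each table, the same 31. Without the shared barcodes the 90% count was also 64.

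Among small-subunit pseudogenes the highest counts were those of Rps18-ps3 and Rps23-ps1. Rps18-ps3, a copy of the gene for a protein of the subunit head, had 26395 and 167743 UMIs against 17608 and 76511 on Rps18. Rps23-ps1 had 32226 and 151104 UMIs and Rps23-ps2 24668 and 121871, against 8137 and 52016 on Rps23. Both copies thus stood above the parent in both tables. Rps16-ps2 had 20546 and 130628 UMIs against 7235 and 20325 on Rps16, and it carried no differing base over its 441 aligned bases. Rps15a-ps7 had 17271 and 103243 UMIs against 6646 and 27992 on Rps15a. Rps6-ps3 stayed nearer to its parent Rps6, which makes the small-subunit protein phosphorylated by S6 kinases, with 15166 and 102579 UMIs against 13910 and 87101.

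Among large-subunit pseudogenes, several parents were left with a small remainder. Rpl17-ps5 had 17293 and 111909 UMIs, while Rpl17, whose protein lines the exit of the peptide tunnel, had 748 and 4432. Rpl10-ps3, 1 of the 6 annotated as protein-coding, had 16514 and 109658 UMIs against 1394 and 8736 on Rpl10, which makes a late-joining protein needed for subunit joining. Rpl9-ps6, annotated likewise, had 15287 and 104243 UMIs and Rpl9-ps4 had 14621 and 98452, against 1662 and 10254 on Rpl9. Each of these parents lay far below a single copy of itself in both tables. Rpl13-ps6 had 21155 and 136910 UMIs against 7245 and 49938 on Rpl13, and Rpl19-ps11 had 18834 and 119193 against 6241 and 46103 on Rpl19. In each of these families, as in the small-subunit ones above, the order of copy and parent was the same in both tables.

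Seen family by family, the part of UMIs that fell on pseudogenes ran from almost none to almost all. It was above 90% in 12 of 60 families in each short-read table, above 50% in 33, and below 10% in 13, with medians of 62.0% and 64.8%. Rpl17 (98.5% and 98.4%), Rps12 (96.8% and 97.4%), Rpl10 (97.1% in both) and Rpl31 (96.8% and 95.9%) were at the top. At the bottom were Rplp0, which makes the central protein of the ribosomal stalk (0.0507% and 0.0228%), Rps27 (0.0149% and 0.0247%) and Rps29 (0.0247% and 0.0322%), each with 1 listed pseudogene. Rpl26 and Rpl29 also stayed at 0.395% and 1.64% in the 10% table, although 4 and 3 of their pseudogenes were listed.

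**Figure D1:**
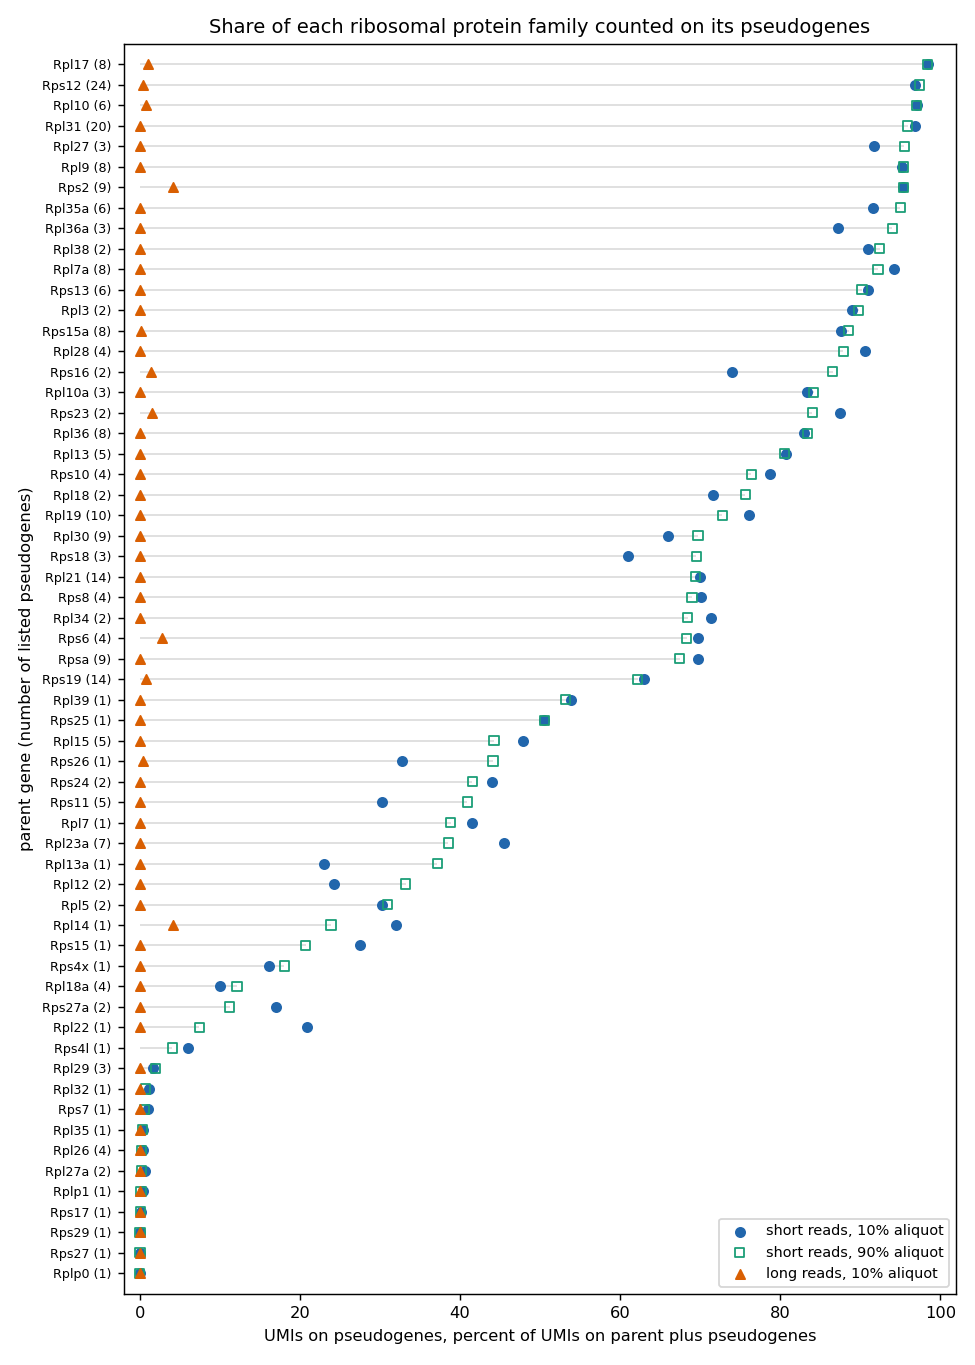
Percent of the UMIs of each ribosomal protein family (parent plus its listed pseudogenes, whose number follows the name) that were counted on pseudogenes, over all barcodes; circles and squares are the short-read tables of the 10% and 90% aliquots and triangles the long-read isoform table. The short-read points run from near 0 to 98.5%, while the highest long-read point is 4.13%, and Rps4l has no long-read point.

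Long reads of the same barcodes put these families on the parents. The isoform table of the 10% aliquot held 8297203 UMIs, of which 7433 (0.0896%, interval 0.0876 to 0.0916%) were on pseudogenes and 1588281 (19.1%) on parents. That is 0.468 pseudogene UMIs per 100 parent UMIs, and 0.403 in the 269 barcodes with at least 3000 short-read UMIs. Only 12 of the 300 pseudogenes were listed in that table, and 54 were in the isoform annotation deposited with it. The isoform table lists transcripts that passed a support filter, with reads that could not be placed on 1 isoform left out, and the treatment of short reads with several matching places was not given in the sources used here.

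The 12 pseudogenes listed with long reads were Rps2-ps10 (2937 UMIs), Rpl14-ps1 (1241), Rps6-ps4 (1038), Rps23-ps1 (665), Rps16-ps2 (468), Rps19-ps6 (304), Rpl17-ps5 (258), Rpl10-ps6 (224), Rps12-ps4 (90), Rpl17-ps8 (88), Rps26-ps1 (65) and Rps15a-ps5 (55). Their parents had far more. Rps23 had 42133 long-read UMIs, Rpl17 33269 and Rps2, whose protein sits at the mRNA entry channel, 68201. The largest pseudogene part of any family in long reads was 4.13%, for Rps2, against 95.3% and 95.4% for the same family in the short-read tables. In 48 of 59 families the isoform table listed no pseudogene UMI, and Rps18-ps3, with the most short-read UMIs over both tables, was among the pseudogenes it did not list.

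The level of a parent in long reads was closer to the family sum in short reads than to the parent alone. In the barcodes with at least 3000 short-read UMIs of the 10% table, the log2 ratio of short-read to long-read CPM over 59 parents had a median of -1.23 for the parent alone (quartiles -2.60 and -0.64) and 0.21 for the parent plus its pseudogenes (quartiles -0.46 and 0.84). Within 2-fold of the long-read value were 25 parents alone and 39 with their pseudogenes added, and more than 4-fold below it were 20 and 4. Rpl17 had 4158 CPM in long reads, 110 in short reads as a parent alone and 7257 with its pseudogenes. Rps2 had 8442, 178 and 3827 CPM. For Rpl12 the sum did not come near, at 2258 CPM in long reads, 81.6 alone and 108 with its 2 listed pseudogenes. Across these 59 parents the rank correlation with the long-read level was 0.38 for the parent alone and 0.42 for the sum, as a description over genes measured in the same cells.

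**Figure D2:**
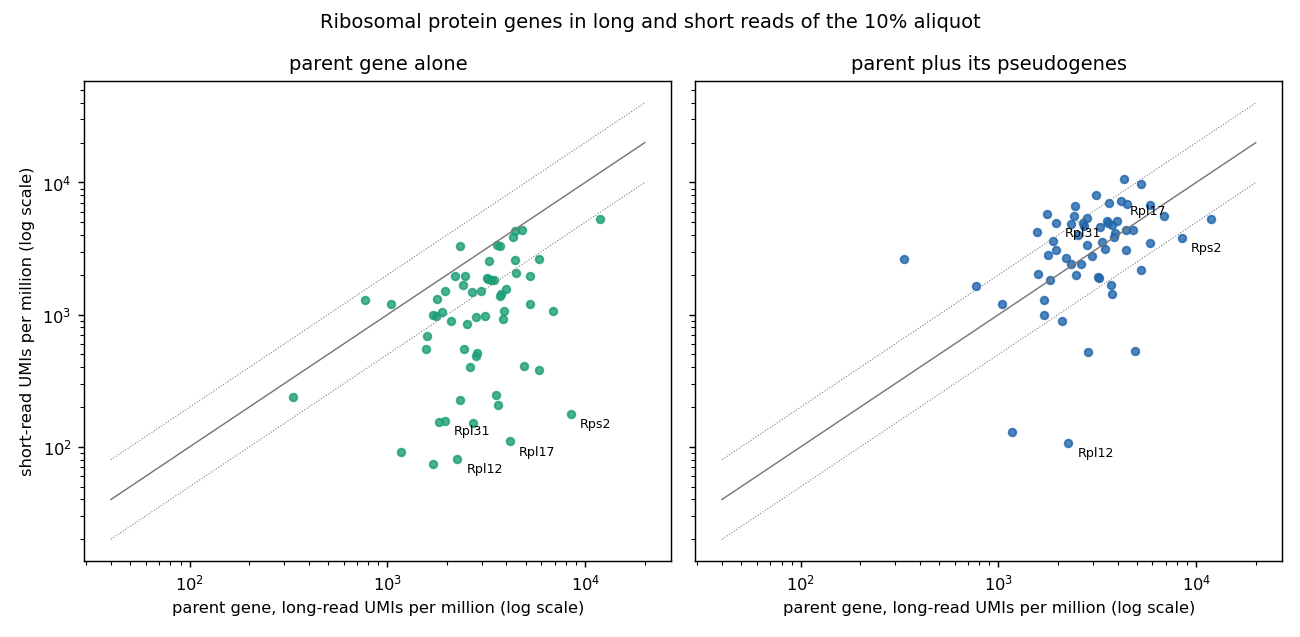
CPM of each of 59 ribosomal protein genes in long reads (x axis, log scale) against short reads (y axis, log scale) in barcodes with at least 3000 short-read UMIs of the 10% aliquot, for the parent alone (left) and for the parent plus its pseudogenes (right). The solid line is equality and the dotted lines are 2-fold; 25 points lie within 2-fold on the left and 39 on the right, while Rpl12 stays far below on both sides.

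The number of UMIs on a pseudogene followed how much of its sequence it shared with the parent. Each pseudogene was aligned to the coding transcript of its parent that gave the highest identity, which was possible for 298. Differing bases include inserted and missing ones. A pseudogene not listed in a short-read table was counted there as 0 UMIs. Where the pseudogene was longer than the transcript, only a part was compared, as for Rps15a-ps4 (250 of 502 bases). The 13 pseudogenes with no differing base had medians of 14155 and 76452 UMIs in the 10% and 90% tables, and the lowest of them still had 3362 and 13294. The 10 with 1 differing base had medians of 11024 and 69183 UMIs. The 39 with 2 to 5 differing bases had medians of 5953 and 28515, the 37 with 6 to 10 had 753 and 5520, and the 49 with 11 to 20 had 115 and 500. With 21 to 50 differing bases, 89 pseudogenes had medians of 10 and 63 UMIs, and the 61 with more had medians of 0 and 1. The steps went down at every class in both tables.

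Over the 298 pseudogenes the rank correlation of the UMI count with the percent identity to the parent was 0.81 in each table. With the length of the pseudogene it was 0.05 and 0.07, and with the parent's own UMI count 0.09 and 0.11. These are descriptions over genes, and pseudogenes of 1 family share a parent and much of their sequence. A closer measure was the part of all 50-base words in the last 300 bases of a pseudogene that also occur in the parent, which gave 0.85 and 0.86.

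Many UMIs were on pseudogenes that have no letters of their own at this word length. For 45 pseudogenes every 50-base word of the last 300 bases also occurs in the transcripts of another annotated gene. These 45 held 392475 UMIs in the 10% table (41.0% of all pseudogene UMIs) and 2153928 in the 90% table (40.7%), and 30 of them exceeded their parent in each table. Rps23-ps1, Rps16-ps2, Rpl19-ps11 and Rpl9-ps4 were among them. At the other end, 46 pseudogenes shared no 50-base word with any other gene, and they held 2203 and 1962 UMIs together, with medians of 0 and 2. Of the 2203 UMIs in the 10% table, 1975 were on Rpl31-ps4.

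Some pseudogenes stood off the gradient by differing bases. Rpl18-ps1 had 5860 and 44137 UMIs with 246 differing bases and an identity of 53.1% over its alignment. Rpl31-ps12, with only 4 differing bases, was listed in neither short-read table, and whether the short-read counting covered it was not tested. Of the 50-base words in the last 300 bases of Rpl18-ps1, 0% occur in the parent and 44.2% in any other gene. Rps2-ps10 had 10777 and 37699 UMIs with 37 differing bases. Of its words, 67.7% occur in the parent and 87.65% in any other gene, the parent included. Rpl10-ps3 and Rpl9-ps6, both annotated as protein-coding, had 18 and 23 differing bases but shared 88.8% and 92.4% of the 50-base words of their last 300 bases with the parent. These genes were picked after their values were seen.

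**Figure D3:**
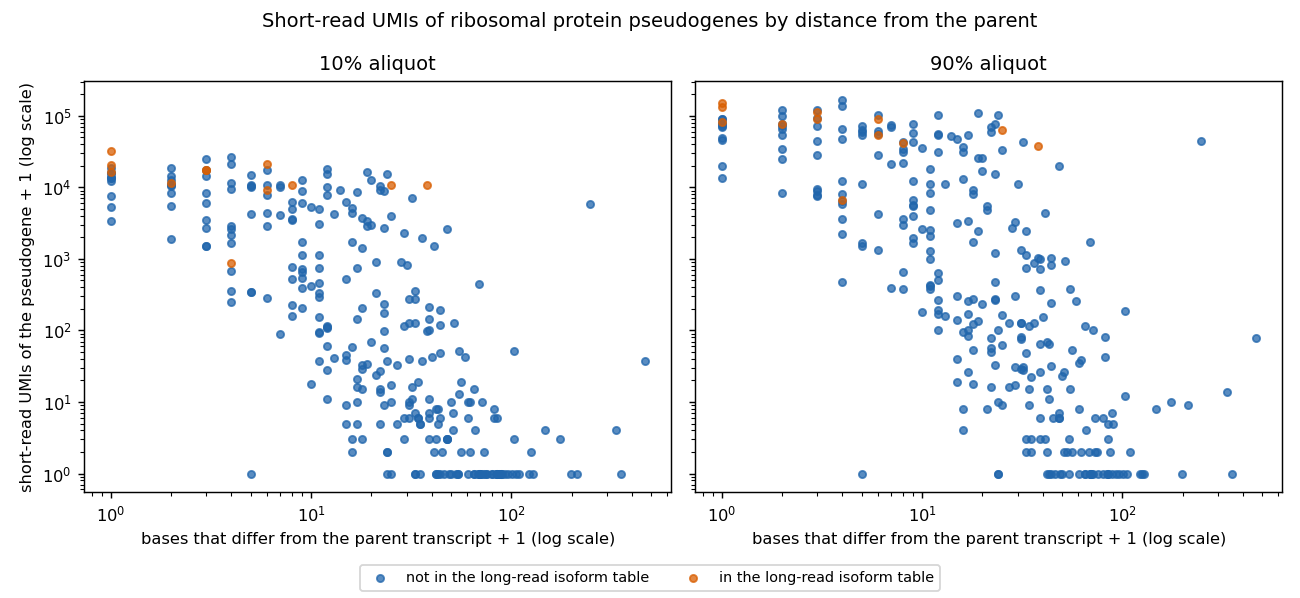
Short-read UMIs plus 1 (y axis, log scale) of the 298 pseudogenes with a parent transcript against the number of bases that differ from it plus 1 (x axis, log scale), in the 10% table (left) and the 90% table (right); orange points are the 12 pseudogenes listed in the long-read isoform table. Points with no differing base (at 1 on the x axis) all lie above 3000 UMIs in the 10% table, and most points beyond 50 differing bases lie at or near 0. Pseudogenes not listed in a short-read table are drawn with 0 UMIs.

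Between the depth bands few pseudogenes differed 2-fold, and most had a band ratio near that of their parent. Among all genes with at least 50 UMIs over both bands, 43.3% in the 10% table and 44.7% in the 90% table differed at least 2-fold in CPM between low and high band. Higher in the low band were 14.1% and 17.1% of genes, and lower were 29.3% and 27.6%. Of the pseudogenes, 160 and 196 reached 50 UMIs, and 3 and 6 of these differed at least 2-fold, with 0 and 1 higher and 3 and 5 lower in the low band. Without the shared barcodes, 3 of 194 did so in the 90% table, 1 higher and 2 lower, against 44.8% of all genes (16.8% higher and 28.0% lower). The parents were alike, with 1.67% and 3.33% of 60 past 2-fold in the 10% and 90% tables, the shared barcodes included. Among 870 and 1381 other processed pseudogenes these shares were 36.7% and 35.5%. The median log2 ratio of low over high band was 0.01 and 0.04 for the pseudogenes, with quartiles of -0.30 and 0.32 in the 10% table, while the median of all genes was -0.32 and -0.26. Relative to that median of all genes, 11 and 3 pseudogenes were past 2-fold, and 10 of the 60 band ratios of the 30 named pseudogenes changed sign. The share of all genes past 2-fold on that scale was not counted. No pseudogene passed 2-fold in the same direction in both tables. Pseudogenes below 50 UMIs are not covered by these counts.

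The pseudogenes past 2-fold, named after their values were seen, were of low count or of the Rps2 family. In the 10% table they were Rps2-ps11 (log2 ratio -1.75, 125 UMIs over all barcodes), Rpl7a-ps7 (-1.25, 98 UMIs) and Rpl31-ps10 (-1.25, 228 UMIs). In the 90% table, 5 were lower in the low band, namely Rps2-ps10 (-1.02), Rps2-ps13 (-1.01), Rps2-ps5 (-1.04), Rps2-ps6 (-1.03) and Rpl27-ps2 (-1.25, 128 UMIs). Only Rps7-ps2, with 78 UMIs, was higher (1.495). Without the shared barcodes only Rps2-ps6, Rpl27-ps2 and Rps7-ps2 remained past 2-fold, at -1.02, -1.25 and 1.60, while Rps2-ps10, Rps2-ps13 and Rps2-ps5 were just inside it. Rps2 itself had a log2 ratio of -0.71 in the 10% table and -0.72 in the 90% table, on the same side as these copies.

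The larger pseudogenes show the range. Rpl17-ps5 had 3524 CPM in the low band and 2311 in the high band of the 10% table, a log2 ratio of 0.61, and 4014 and 2593 CPM in the 90% table, a log2 ratio of 0.63. Rps19-ps6, a copy of the gene whose human counterpart is mutated in Diamond-Blackfan anaemia, had log2 ratios of 0.71 and 0.70. Rpl13-ps6 was alike, at 0.61 in both tables. On the other side, Rpsa-ps10, a copy of the gene for the laminin receptor protein of the small subunit, had log2 ratios of -0.47 and -0.60. Rps18-ps3 hardly differed between the bands, with 3871 and 3936 CPM in the 10% table and 4360 and 4326 in the 90% table. Rps23-ps1 was slightly higher in the low band, at 5242 and 4686 CPM in the 10% table and 4387 and 3779 in the 90% table.

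Against the parent, 143 of 160 pseudogenes in the 10% table and 180 of 196 in the 90% table had a log2 band ratio within 0.5 of that of the parent. The rank correlation of the pseudogene's band ratio with the parent's was 0.74 and 0.81, and 0.81 in the 90% table without the shared barcodes (n = 194). The points share libraries and barcodes, and copies of 1 parent share its value. Quiescence and immune markers were higher in the low band as given above, and their part in the band ratios was not tested.

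**Figure D4:**
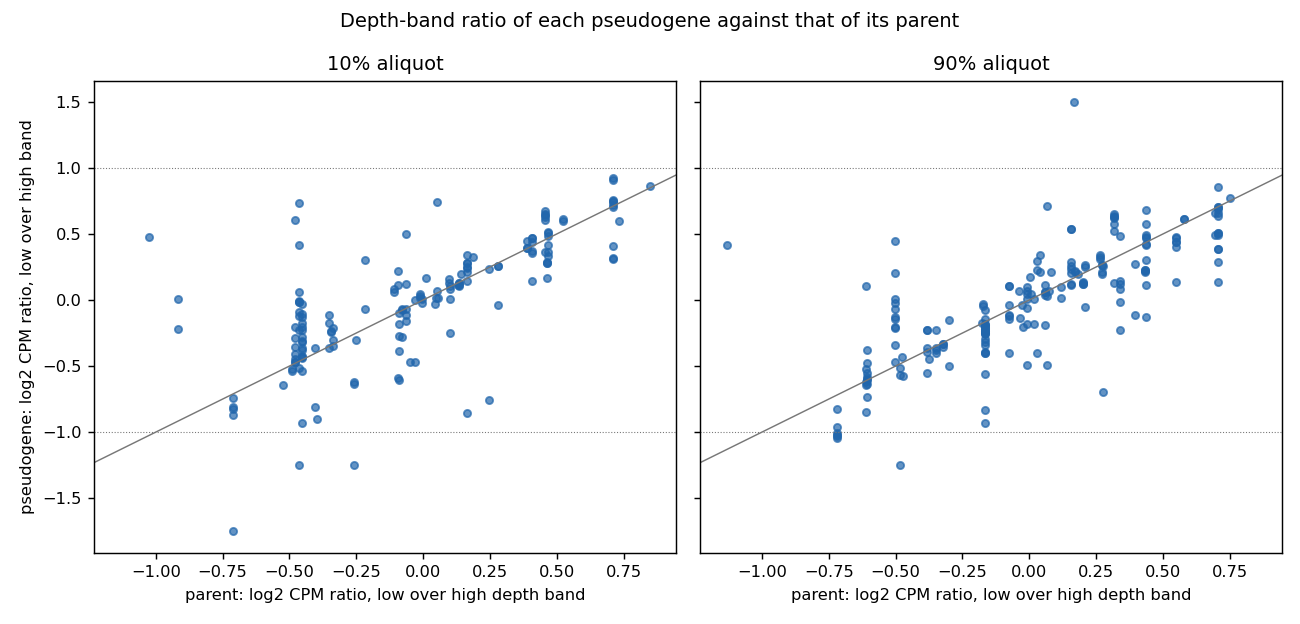
Log2 ratio of CPM in barcodes of 3000 to 15000 UMIs over barcodes of at least 20000 UMIs for each pseudogene with at least 50 UMIs (y axis) against the same ratio of its parent (x axis), in the 10% table (left) and the 90% table (right); the solid line is equality and the dotted lines mark 2-fold. Most points lie near the line, between -1 and 1, and copies of the same parent form vertical columns.

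In single barcodes the abundant pseudogenes were nearly always present. After every barcode was thinned to 3000 UMIs, 95 pseudogenes in the low band and 97 in the high band of the 10% table had a UMI in at least 50% of barcodes, and 90 and 87 did so in the 90% table. Before thinning these counts were 110 and 156, and 100 and 143. The share of all genes found in as many barcodes was not counted, so these counts have no background beside them. Rpl17-ps5 had a UMI in 98.3% of the thinned low-band barcodes of the 10% table (178 barcodes, interval 95.2 to 99.7%), while its parent Rpl17 had one in 33.1% (interval 26.3 to 40.6%). In the high band the values were 100% and 26.6%. Other parents were found about as often as their copies. Rps18, Rps23 and Rpl13 had a UMI in 99.4%, 97.2% and 97.2% of the thinned low-band barcodes of the 10% table. Their copies Rps18-ps3, Rps23-ps1 and Rpl13-ps6 had one in 98.3%, 98.9% and 98.9%. The intervals in this paragraph take barcodes of 1 library as units, and barcodes are not replicates. No cell type that lacks ribosomal protein mRNA was available as a background, and barcodes below 500 UMIs carried the pseudogenes at 11.6% and 8.29% of their UMIs.

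The 263 barcodes with at least 3000 UMIs in both tables allowed the same cells to be compared between the tables. The pseudogenes as a group held nearly the same share, at 14.2% in both, with 173 UMIs per 100 parent UMIs in each. Single pseudogenes did not. Of 175 pseudogenes with at least 50 UMIs over both tables, 2 were at least 2-fold higher and 25 at least 2-fold lower in the 90% table, which is 15.4%, while 3.42% of all 9499 genes tested differed that much (0.232% higher and 3.19% lower). The same share was 22.6% among 1051 other processed pseudogenes, 6.67% among the 60 parents and 0.376% among 7979 protein-coding genes. The median log2 ratio of 90% over 10% was 0.13 for all genes and -0.05 for the pseudogenes. Against the barcodes of the 90% table that are not in the 10% list, which are other cells, 30 of 196 pseudogenes differed at least 2-fold (15.3%), 5 higher and 25 lower, against 7.39% of all genes (3.88% higher and 3.51% lower).

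Rpl31-ps4 moved most among those with at least 50 UMIs. It had 294 CPM in the 263 barcodes of the 10% table, 25.1 in the same barcodes of the 90% table and 21.4 in the other barcodes of the 90% table, a log2 ratio of -3.55 in the same barcodes (exact interval -3.79 to -3.32). It was lower in the 90% table in 234 of 263 barcodes, higher in 6 and at 0 in both tables in 23. Rpl31-ps9 went from 516 to 234 CPM and Rpl31-ps11 from 428 to 132. By contrast Rpl31-ps8, whose letters are those of the parent, had 2765 and 2417 CPM, and Rpl31 itself had 157 and 126. The family sum went from 4972 to 3738 CPM, a log2 ratio of -0.41. These copies were chosen for this spread after their values were seen.

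In the Rps15a family, Rps15a-ps2 went from 426 to 70.0 CPM (log2 ratio -2.61), lower in 237 of 263 barcodes, and Rps15a-ps4 from 1897 to 712 (-1.41), lower in 260. Rps15a-ps7 rose slightly, from 2567 to 2934 CPM, and Rps15a-ps5 from 1359 to 1455. Rpl22-ps1, a copy of the gene for a large-subunit protein that has a paralogue, went from 343 to 89.0 CPM (-1.95). In the other direction, Rpl13a-ps1 went from 121 to 274 CPM (1.18), higher in 213 of 263 barcodes. Across 175 pseudogenes the ratio between the tables had a rank correlation of 0.09 with that of the parent, with 104 within 0.5 and 29 more than 1 apart on the log2 scale. Against the other barcodes of the 90% table it was 0.23 over 196 pseudogenes, and in both cases the points share libraries and copies of 1 parent share its value. The 25 that were lower had a median of 16 differing bases, against 8 for the 148 within 2-fold, and held 5.26% of the pseudogene UMIs of these barcodes in the 10% table. These genes were named after their values were seen.

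Parents also moved while their families did not. Rps16 went from 1077 to 506 CPM between the tables in the same barcodes (log2 ratio -1.09), lower in 244 of 263, while Rps16-ps2 went from 3056 to 3653 CPM, higher in 243 of 263. The sum of the family was 4133 and 4160 CPM. Rpl27 went from 154 to 78.6 CPM with family sums of 1843 and 1871, and Rpl35a from 556 to 332 CPM with sums of 6619 and 6556. Rpl36a fell by 1.45 on the log2 scale and its family by 0.28. Over the 59 families with at least 200 UMIs in these barcodes of the 10% table, the median absolute log2 ratio was 0.24 for the parent alone and 0.17 for the sum, and the sum was nearer to 0 than the parent alone in 41. Families with few pseudogene UMIs kept their parent's change, as Rps27 did, at -1.565 alone and -1.566 with its pseudogene.

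**Figure D5:**
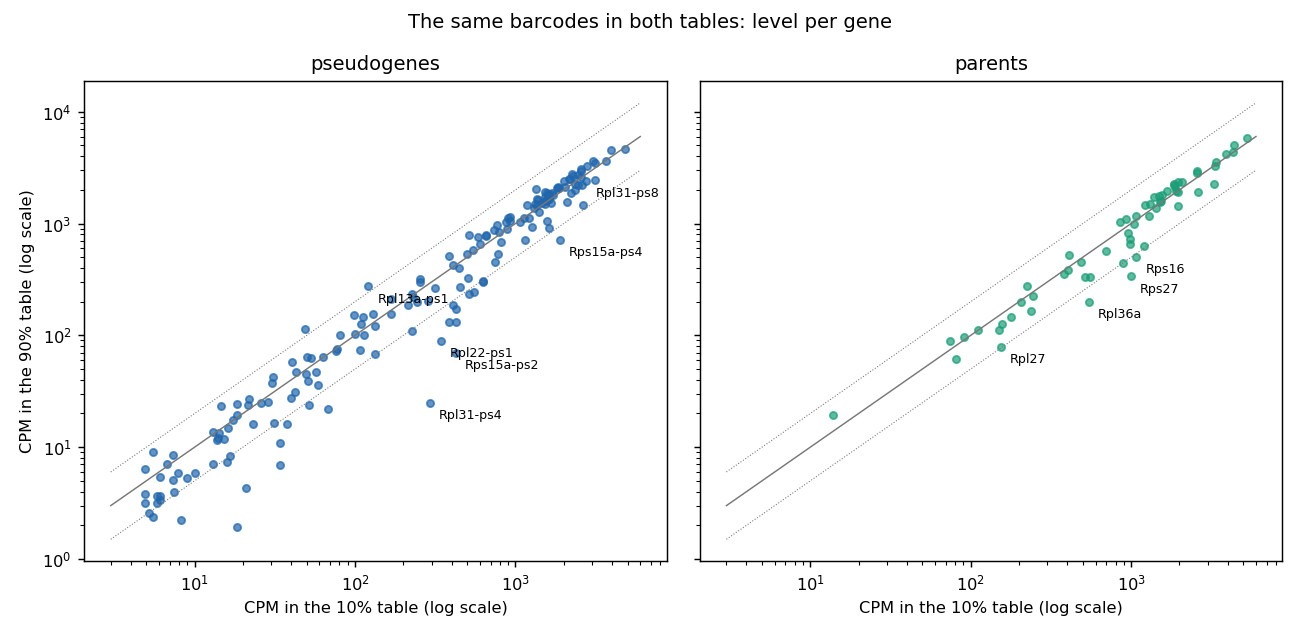
CPM of each gene in the 263 barcodes with at least 3000 UMIs in both tables, in the 10% table (x axis, log scale) and in the 90% table (y axis, log scale), for pseudogenes (left) and parents (right) with at least 50 UMIs; the solid line is equality and the dotted lines are 2-fold. Abundant pseudogenes such as Rpl31-ps8 lie near the line, and Rpl31-ps4, Rps15a-ps2 and Rpl22-ps1 lie well below it.

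Other pseudogenes shared the pattern of high short-read and low long-read counts. Processed pseudogenes other than those described here held 25.6% and 22.9% of short-read UMIs and 0.124% of long-read UMIs. The other genes with -ps in their symbol, which were not kept apart from the former group, held 1.40% and 1.32%, and 0.0558% in long reads. Copies of ribosomal protein genes that carry another kind of symbol are among the former group, and they were not assigned to parents here.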

How the data were processed

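The authors deposited 2 tables of short-read UMI counts per gene and barcode, made with scPipe, and 1 table in which FLAMES had counted long-read UMIs of each isoform. The submitters' processing notes name Cell Ranger 1.3, minimap2 2.17 and GRCm38.p6, and the short-read aligner and its handling of reads with several matching places are not given in the sources used here. The count tables are raw, and the positions in the deposited isoform annotation have no unit other than bases. The authors' cell number of 242 was taken for the 10% aliquot, and the rest of their total, 611, for the 90% aliquot. That subtraction treats the cells of the 2 aliquots as separate, and both numbers were used only for 1 alternative.

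Symbols, positions and sequences came from Gencode vM21 (GRCm38). CPM scales UMIs to the total of the barcodes summed. Genes with at least 50 UMIs entered ratios, and a ratio of at least 2-fold was counted. Intervals are 95% Clopper-Pearson and exact conditional Poisson intervals and cover counting error only (scipy 1.17.1). Pseudogenes were aligned with edlib 1.3.9.post1 to the coding parent transcript of highest identity. The 50-base words of their last 300 bases were compared with all annotated transcripts. The ratio call was tested on simulated data. No replicates exist, so no test between groups was made. No doublets were removed, and no file column was left unmapped.

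Named genes were the 12 pseudogenes with most UMIs, those above their parent, in the isoform table or past 2-fold in both tables, at most the 30 with most UMIs, with their parents. Others were named after their values were seen, as the text says. The genes and lists were chosen with earlier results of these data known.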

Additional observations from a re-analysis of the deposited data

How the results depend on the processing

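No paired analysis was possible because each aliquot is 1 library, so that no fit with replicates as pairs exists, and the barcodes matched between the tables were compared by their values only. In the order 10% low band, 10% high band, 90% low band and 90% high band, the pseudogene share of UMIs was 15.1%, 13.5%, 14.5% and 12.9% without the pseudogene with most UMIs, 15.2%, 13.6%, 14.6% and 13.02% without those that overlap an exon of another gene, and 15.6%, 14.02%, 15.1% and 13.5% with mitochondrial UMIs left out. In the same order, the UMIs per 100 parent UMIs were 179, 165, 175 and 162, then 180.1, 166, 176 and 164 under the first 2 of these settings, and 115, 107, 115 and 107 against all Rpl and Rps genes that are not pseudogenes. Over all barcodes the shares were 14.1% and 13.5%, with 173 and 170.5 UMIs per 100 parent UMIs. Bands of 5000 to 12000 and at least 30000 UMIs gave shares of 16.0% and 13.9% in the 10% table and 179.5 UMIs per 100 parent UMIs in the low band of the 90% table. The mean over barcodes was 13.9% in the 10% high band and 15.0% and 13.3% in the 90% bands. The cell numbers taken from the study as described above gave 15.6% in the 10% low band and left no barcode in the 90% low band. Without the shared barcodes, a setting chosen after seeing the data, the 90% bands gave 14.8% and 13.2%, and 179.5 and 167 UMIs per 100 parent UMIs.

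Counting pseudogenes with at least 10% of the UMIs of the parent gave 124 and 121, and the deposited annotation listed 54 in place of 12. Past 2-fold between the bands were 3 and 6 pseudogenes. These became 36 and 34 at 1.5-fold, 1 and 0 at 3-fold, 9 and 11 from 20 UMIs, 11 and 3 after division by the median ratio of all genes, and 6 and 2 per parent UMI. They became 1 and 4 from 200 UMIs and 7 and 9 with the other bands, and without the shared barcodes the 90% count was 3. The share of all genes past an alternative setting was counted only without the shared barcodes. The other counts therefore have no background beside them. At 1.5-fold and 3-fold no share of all genes was counted between the tables in the same barcodes. There, 27 became 51 at 1.5-fold and 10 at 3-fold, both chosen after seeing the data. The cause of these shifts was not tested. Depth limits the pseudogenes of few UMIs, and 1 library per aliquot leaves the spread between captures unknown.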
